A study of Mus musculus with 6 samples.

Results

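The comparison described here is that of 2 arrays of estradiol-treated cells, labelled estradiol 1 and 2, with 2 arrays of cells of the same clone grown without estradiol, labelled withdrawal 1 and 2. These 4 arrays were chosen by their titles from the 6 of the series. The other 2 arrays are the doxycycline group, which enters the fit's estimate of the spread but not the differences. All 6 samples came from 35/1-22, 1 clone of NIH3T3, an immortalised mouse fibroblast line. All carried c-Myc and Ha-Ras under a Tet-off promoter together with IRF-1hER, a constitutively made fusion of IRF-1 to the part of the human estrogen receptor that binds hormone. Doxycycline (2 µg/ml) keeps the Tet-off promoter silent, so the oncogenes were off in the doxycycline group and on in the withdrawal and estradiol groups. The 2 doxycycline arrays may not have been treated alike, as the title of doxycycline 2 names estradiol and that of doxycycline 1 does not. The treatment entries give estradiol for neither. The fit took both as replicates, so any such difference would enter the SE and p-values of the fit on all 6 arrays. The estradiol group had received estradiol for 48 h, at a concentration that the labels give as 1 mM. RNA was extracted with RNeasy for replicate 1 and with TRIzol for replicate 2, so the replicate number is also an extraction batch. No cells without the fusion were included, and IRF-1 activation cannot be told apart from other effects of estradiol. The series title places the question of the comparison in tumor suppression by IRF-1 and a lower level of cyclin D1.

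IRF-1 is a transcription factor that binds repeats of the sequence GAAA in the promoters of interferon-inducible genes. It is known for switching on antiviral genes, the MHC class I pathway that presents peptides to T cells, and genes that restrain growth. The hormone-binding part of the estrogen receptor holds a fused protein inactive, bound to the chaperone Hsp90, until estradiol is added. Myc and Ras in turn are known to drive ribosome production, DNA replication and mitosis in fibroblasts, and to lower genes of the extracellular matrix and the contractile cytoskeleton.

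Each value is a MAS5 signal, the brightness of a probe set, a set of short probes designed against 1 transcript. Differences are estradiol minus withdrawal on the scale of log2(signal + 32), so that 1 is a doubling, and the change of dim probe sets is understated. Of 12422 probe sets that are not Affymetrix controls, 10833 had 1 gene symbol and named 8251 genes. A gene with several probe sets is given by its brightest one unless stated. The labels do not say that the 2 samples of a group were separate cultures, and p-values then cover only the spread from array to array. In bulk RNA, fewer cells of a type and less RNA per cell cannot be told apart.

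The 2 replicate numbers gave pictures of very different size, as the plot of array pairs shows. The arrays labelled withdrawal 1 and estradiol 1 had 18 of 12422 probe sets at least 2-fold apart, fewer than any other of the 15 pairs of arrays. The next lowest number was 281, between withdrawal 1 and estradiol 2. Withdrawal 2 and estradiol 2 differed in 685, and withdrawal 1 and withdrawal 2 in 973. The standard deviation of the difference over all probe sets was 0.20 in replicate 1 and 0.49 in replicate 2. Among 5965 probe sets with a mean signal of at least 64 in either group, 50 differed at least 1.5-fold in replicate 1 and 1696 in replicate 2. The 2 arrays of replicate 1 were not copies of 1 file: 120 probe sets had the same signal on both, against 50 to 72 for the other pairs of arrays. No array that repeated the same RNA was among the 6, so how far 2 arrays of 1 RNA would differ was not tested. The labels were used as given. Whether samples were exchanged was not tested, and the meaning and sign of every difference given here rest on the labels.

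**Figure D1:**
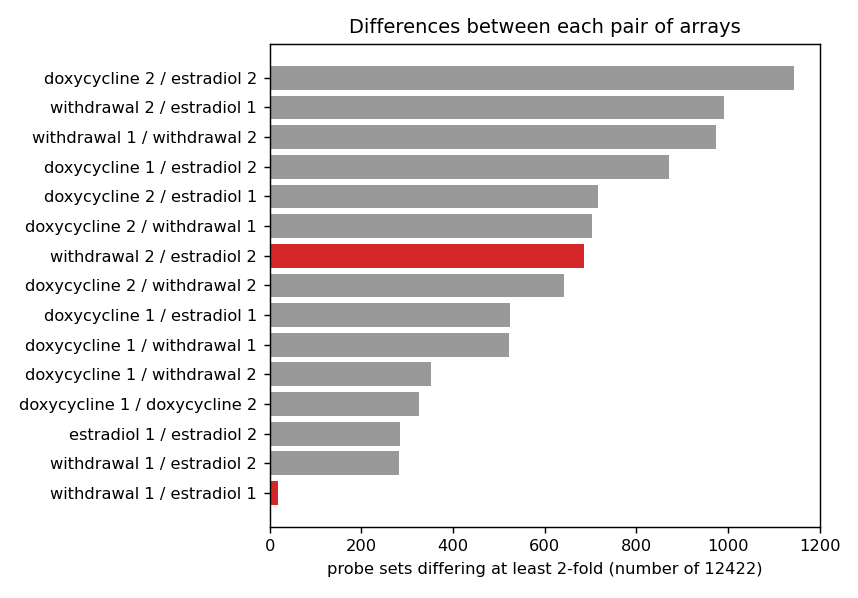
Number of probe sets, of 12422, that differed at least 2-fold between each pair of the 6 arrays, with the pairs of withdrawal and estradiol arrays of 1 replicate number in red. The pair of replicate 1 stands at 18 and the pair of replicate 2 at 685.

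Over all probe sets the estradiol and withdrawal groups did not separate beyond the spread between arrays. Limma called 0 of 12422 probe sets at a Benjamini-Hochberg adjusted p under 0.05 (0% of those tested), and the adjusted p was 1 for every probe set. At an unadjusted p under 0.05 there were 160 (1.29%), of which 86 were higher and 74 lower with estradiol, against 621 that chance alone would give. Leaving out 1 array gave 144 to 1378 probe sets at that unadjusted p and 0 calls in each case. The highest number was reached without withdrawal 1 and the next, 389, without estradiol 1. With the replicate number as a block there were 174, and again 0 calls. In single arrays, 8 of 8251 genes differed at least 2-fold in replicate 1 (0.097%). In replicate 2, 269 genes were at least 2-fold higher with estradiol (3.26%) and 270 at least 2-fold lower (3.27%). A 2-fold difference with 1 sign in replicate 1 and in replicate 2 was seen in no probe set, and one with opposite signs in 2. At least 1.5-fold with the same sign were 23 probe sets, 14 higher and 9 lower, and 16 had opposite signs. All fold changes that follow are therefore descriptions of genes that did not pass, with an adjusted p of 1 from limma, and each standard error (SE) is that of the fit.

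**Figure D2:**
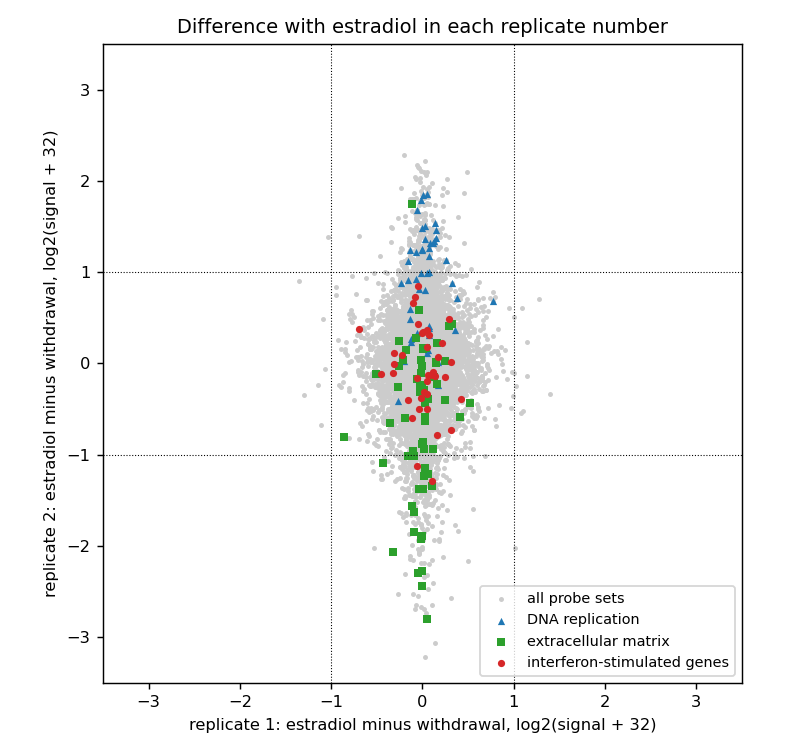
Difference between estradiol and withdrawal in replicate 1 (x axis) and replicate 2 (y axis), in log2(signal + 32), for all 12422 probe sets and for the genes of 3 lists. Dotted lines mark a 2-fold difference, which 18 probe sets reached in replicate 1 and 685 in replicate 2.

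The genes manipulated in these cells were read first. Irf1, the mouse gene of the factor in the fusion, had signals of 212 and 204 after withdrawal and 225 and 155 with estradiol, a difference of -0.13 (SE 0.28). The 4 signals overlapped between the groups. Estradiol acts on the fusion protein and not on its transcript, so this probe set does not check the treatment. Myc, which heads the program of ribosome and cell cycle genes, had 25.7 and 118 after withdrawal and 31.9 and 28.1 with estradiol (-0.59, SE 0.45). Its one high value was that of withdrawal 2, and the labels do not say whether the mouse probe set reads the transgene. No probe set carried the symbol Hras.

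Cyclin D1, named in the series title, was not lower with estradiol in these arrays beyond the spread between them. Ccnd1 encodes the cyclin that activates Cdk4 early in the cell cycle, and its brighter probe set differed by -0.14 in replicate 1 and 1.31 in replicate 2. Fitted on the 4 arrays alone, its difference was 0.58 with a 95% confidence interval from -0.37 to 1.53, which spans 0. For the second probe set the interval ran from -1.27 to 2.57. The sister cyclins stayed closer to 0. Ccnd2 had signals of 101 and 344 after withdrawal and 74.6 and 314 with estradiol (-0.22, SE 0.66). Replicate 2 was high in both groups, which widens the SE, and the differences within replicates 1 and 2 were -0.32 and -0.12. Ccnd3 had 380.4 and 270.0 without and 370.2 and 238 with estradiol (-0.10, SE 0.29), again with the groups overlapping. Of the 15 genes of the D cyclins, their kinases and the CDK inhibitors on the array, 7 were higher and 8 lower, 0 passed in either direction, and the median was 0.00 against 0.01 over all genes. Cdkn2c, the inhibitor p18 of Cdk4 and Cdk6, had 556 and 417 after withdrawal and 508 and 251 with estradiol (-0.40, SE 0.34). Rbl1, the pocket protein p107, had 100.1 and 43.9 without and 90.3 and 112 with estradiol (0.41, SE 0.34). Cdkn1a, the inhibitor p21, differed by 0.08 and 0.73 in the 2 replicate numbers in its brighter probe set, and by -0.11 and 0.49 in the other.

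Interferon-inducible genes, the class that IRF-1 is best known to activate, showed no difference between the groups that passed the test, and members lay on both sides of 0. Promoters of many genes of this class carry the repeat that IRF-1 and its relatives bind, and 4 promoters are shown to let the values be read beside it. The sequences are the 160 bases before the RefSeq start of each gene, 5′ to 3′ on the gene's strand in GRCm38.p6, and capitals mark matches to GAAANNGAAA on either strand, which may overlap. Gbp2 and Oas1g come from the rule for named genes and IRF-1 targets, while Isg15 and Ifit1 were chosen after their values were seen. Gbp2 encodes a guanylate-binding GTPase (chr3:142620503-142620662, plus strand), Oas1g a 2′-5′ oligoadenylate synthetase (chr5:120887614-120887773, minus strand), Isg15 a ubiquitin-like modifier (chr4:156200819-156200978, minus strand) and Ifit1 a protein that binds viral RNA (chr19:34640729-34640888, plus strand).
Gbp2: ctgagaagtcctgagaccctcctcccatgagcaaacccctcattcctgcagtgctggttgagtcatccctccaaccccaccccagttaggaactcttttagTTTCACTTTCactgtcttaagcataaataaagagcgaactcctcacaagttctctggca
Oas1g: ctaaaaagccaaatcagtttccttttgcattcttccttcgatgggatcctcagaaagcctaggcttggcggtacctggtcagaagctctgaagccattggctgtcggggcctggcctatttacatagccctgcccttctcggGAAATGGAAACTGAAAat
Isg15: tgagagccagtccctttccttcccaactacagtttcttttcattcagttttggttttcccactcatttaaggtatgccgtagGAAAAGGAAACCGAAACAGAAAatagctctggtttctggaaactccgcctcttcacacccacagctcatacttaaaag
Ifit1: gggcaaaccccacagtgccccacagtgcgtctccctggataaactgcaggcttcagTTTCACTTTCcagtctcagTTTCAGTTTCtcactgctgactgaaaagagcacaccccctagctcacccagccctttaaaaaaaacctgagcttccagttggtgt
The first base of the match lies 59 bases before the start in Gbp2, 18 and 12 in Oas1g, 78, 72 and 66 in Isg15, and 104 and 85 in Ifit1.

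Isg15 had signals of 288 and 79.0 after withdrawal and 299 and 111 with estradiol, a difference of 0.21 with an interval from -1.32 to 1.73 in the fit on these 4 arrays. Replicate 1 was high and replicate 2 low in both groups, and this shared gap widens the interval, as the fit had no term for the replicate number. Ifit1 had 66.0 and 125 after withdrawal and 84.6 and 109.6 with estradiol (0.05, interval -0.82 to 0.93), with overlapping groups. Gbp2 had 427 and 149 without and 414 and 293 with estradiol (0.40, interval -0.77 to 1.58), where withdrawal 2 was the lowest of the 4. Oas1g was dim on all 4 arrays, with 2.9 and 4.3 after withdrawal and 8.5 and 10.4 with estradiol. Both of its estradiol values lay above both withdrawal values (0.22, interval -0.0014 to 0.44), at signals under 32 that the offset compresses. Ifih1, the sensor MDA5 of viral RNA, was similarly dim and ordered, with 2.1 and 3.6 without and 9.7 and 17.7 with estradiol (0.39, interval 0.088 to 0.68). That interval excludes 0 but is not adjusted for the number of probe sets tested, and the 4-array fit called 0 probe sets.

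Across the interferon-stimulated list 38 of 59 genes were on the array, of which 16 were higher and 22 lower with estradiol, and 0 passed in either direction. The median difference was -0.05, with 0.03 in replicate 1 and -0.11 in replicate 2, against 0.01, 0.00 and 0.02 over all 8251 genes. Both estradiol arrays lay above both withdrawal arrays for 3 of the 38 genes, where 12% of all genes did, and below for 4, where 10.3% did. In replicate 1 the differences ran from -0.70 to 0.42, and in replicate 2 from -1.29 to 0.85. The 2 genes more than 2-fold lower in replicate 2 were Irf9, the DNA-binding subunit of the interferon-activated complex ISGF3, and Ifi47, an interferon-inducible GTPase. Irf9 had 35.1 and 115 after withdrawal and 40.4 and 27.9 with estradiol (-0.59, SE 0.57), and Ifi47 had 7.4 and 74.9 without and 5.8 and 17.0 with estradiol (-0.59, SE 0.95). In both, withdrawal 2 was the highest of the 4 arrays. Ifitm2, a membrane protein that blocks virus entry, had 62.5 and 58.0 without and 55.1 and 27.4 with estradiol (-0.36, SE 0.29), and Trim21, an antibody receptor of the cytosol, had 110.4 and 93.2 without and 71.6 and 83.4 with estradiol (-0.29, SE 0.34). A second Trim21 probe set differed by 0.41 and -0.11.

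Interferon genes were bright on 1 array outside the comparison. On all 4 arrays of the comparison, 5 of the 38 interferon-stimulated genes had signals under 32. Whether their probe sets could register small changes was not tested. On the array labelled doxycycline 2, whose title also names estradiol although its treatment entry lists doxycycline alone, Isg15 stood at 4709 and Ifit1 at 2362. Doxycycline 2 was the highest of the 6 arrays for 34 of the 38 genes, and the share over all genes was not counted. The list median of log2(signal + 32) was 8.71 on it and 6.47 to 6.78 on the others. The median signal of the whole array was 52.65 on it and 49.7 to 51.5 on the others. The SE of the fit on 6 arrays takes in doxycycline 2, so intervals from the 4 arrays are given for Isg15, Ifit1, Gbp2, Oas1g and Ifih1. For the other interferon genes the SE is that of the 6-array fit and includes doxycycline 2.

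**Figure D3:**
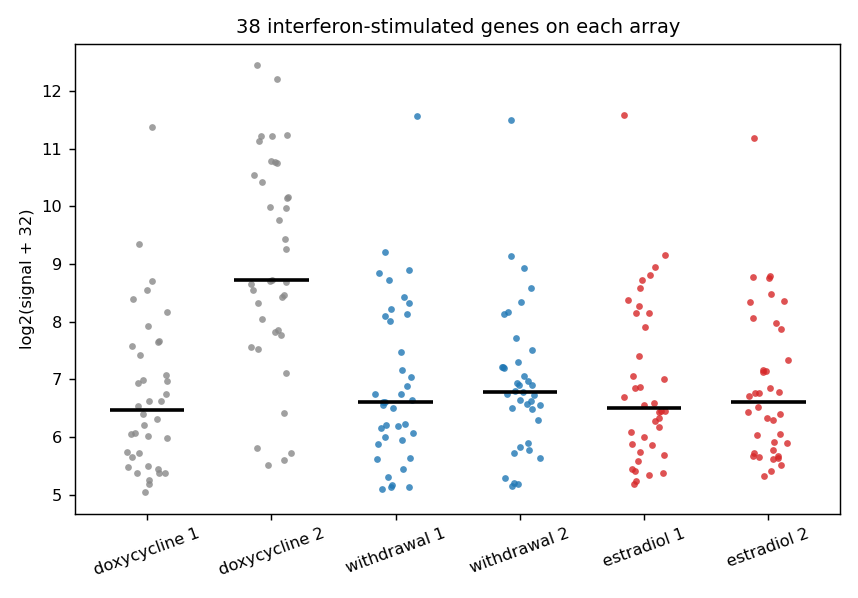
Signals of the 38 interferon-stimulated genes on each of the 6 arrays, as log2(signal + 32), with 1 point per gene and a bar at the median. The 4 withdrawal and estradiol arrays have like medians, and the doxycycline 2 array lies above all others for 34 genes.

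The wider set of reported IRF-1 targets was split. Of 38 listed genes 29 were on the array, 15 higher and 14 lower, with 0 passed in either direction and a median of 0.02 (-0.04 within replicate 1 and 0.00 within replicate 2). Signals were under 32 on all 4 arrays for 8 of the 29, where the offset compresses any change. Ifnb1, which encodes interferon beta, had 40.1 and 29.9 after withdrawal and 17.2 and 8.5 with estradiol (-0.58, SE 0.18), so that it was lower in both replicate numbers at low signals. Psmb9, a catalytic subunit of the immunoproteasome, had 106 and 17.4 without and 127 and 72.4 with estradiol (0.64, SE 0.80), with withdrawal 2 far below the other 3 arrays. Cybb, the phagocyte oxidase subunit, had 6.5 and 16.9 without and 20.7 and 18.2 with estradiol (0.25, SE 0.20), and Casp1, the caspase that matures interleukin 1 beta, had 14.3 and 10.7 without and 11.1 and 3.6 with estradiol (-0.18, SE 0.16). Both were dim on all 4 arrays. Lox, the enzyme that cross-links collagen, differed by -0.04 in replicate 1 and -2.30 in replicate 2, and the adhesion molecule Vcam1 by -0.05 and -0.88.

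Genes of MHC class I and the immunoproteasome had a median of 0.10, with 0.02 within replicate 1 and 0.30 within replicate 2. Of 19 on the array 12 were higher and 7 lower, and 0 passed in either direction. H2-Q10, which encodes a secreted class I chain, had 19.7 and 6.5 after withdrawal and 46.4 and 36.6 with estradiol (0.72, SE 0.25), so that the groups did not overlap. In 3 of the 19 genes both estradiol arrays were above both withdrawal arrays, against 12% of all genes. Naming by the smallest unadjusted p favours such an order. H2-T24, another non-classical chain, was dimmer, with 10.5 and 9.0 without and 21.1 and 18.4 with estradiol (0.31, SE 0.16). H2-T18 went the other way, with 115 and 105 without and 64.2 and 88.3 with estradiol (-0.40, SE 0.31). Class I genes are near-identical copies, and their probe sets may read more than 1 of them. Psmb10, an inducible proteasome subunit, had 578 and 162 without and 541 and 643 with estradiol (0.86, SE 0.69), a difference that lay in replicate 2 alone.

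Receptors and signalling genes of the interferon pathway had a negative median in replicate 2. Of 19 interferon regulatory factor and signalling genes on the array 8 were higher and 11 lower, and 0 passed in either direction. The median of the list was -0.07 (0.02 within replicate 1 and -0.17 within replicate 2). Ifnar1 and Ifnar2 encode the receptor for interferons alpha and beta. Ifnar1 had 45.2 and 96.9 after withdrawal and 35.8 and 15.0 with estradiol (-0.82, SE 0.35), and Ifnar2 had 57.8 and 141 without and 39.2 and 47.3 with estradiol (-0.73, SE 0.37). Both estradiol values lay below both withdrawal values in these probe sets, as in 2 of the 19 listed genes and 10.3% of all genes. Members were named by the smallest unadjusted p, which favours such an order. A second Ifnar2 probe set overlapped between the groups, at 6.5 and 66.5 without and 31.2 and 38.0 with estradiol (differences of 0.72 and -0.49). Stat3, a cytokine-activated transcription factor, had 459 and 1097 without and 471 and 388 with estradiol (-0.70, SE 0.39), with withdrawal 2 alone high. Irf5, a relative of Irf1 in antiviral signalling, had 31.0 and 24.7 without and 36.3 and 69.7 with estradiol (0.48, SE 0.32), with estradiol 2 alone high.

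Over all genes, those with and without the repeat in the promoter had like medians. The repeat lay in 3.44% of 32851 RefSeq windows from 250 bases before to 50 after a start. Of 8251 genes on the array 6572 matched a window, and 256 of these held the repeat (3.90%). It was in 17 of 32 interferon-stimulated genes and 7 of 21 reported IRF-1 targets with a window, and in 2 of 41 DNA replication genes. The 256 genes had a median difference of 0.01 (0.01 in replicate 1 and 0.00 in replicate 2), and the 6316 without it 0.01 (0.00 and 0.02). Of the 256 genes 0 differed at least 2-fold in replicate 1, while 5 were at least 2-fold higher (1.95%) and 13 lower (5.08%) in replicate 2. Of the 6316 without it, 218 were at least 2-fold higher (3.45%) and 205 lower (3.25%). A match says only that these letters are in the window.

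Some genes had a difference of the same sign in each replicate number, and those whose smaller difference was largest are named. On the higher side, Gmnn, which encodes geminin, the inhibitor of replication licensing, had 75.0 and 43.2 after withdrawal and 151 and 88.5 with estradiol (0.73, SE 0.37). Cct6a, a subunit of the chaperonin that folds actin and tubulin, had 270.4 and 201 without and 445 and 352 with estradiol (0.69, SE 0.25). Plaur, the urokinase receptor, had 72.5 and 65.2 without and 115 and 114 with estradiol (0.54, SE 0.28). In these 3 genes both estradiol arrays were above both withdrawal arrays, as was the case for 12% of all genes. The choice required the same sign in both replicate numbers, which favours such an order. Over all 12422 probe sets the differences of the 2 replicate numbers correlated at 0.0046. A second, dim Cct6a probe set differed by 0.10 and -0.15.

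Mybl2, the S-phase transcription factor B-Myb, had 67.5 and 9.0 after withdrawal and 107 and 143 with estradiol (1.29, SE 0.44), with 0.49 in replicate 1 and 2.09 in replicate 2. Its second, dimmer probe set was lower with estradiol (differences of -0.31 and -0.20). Chrne, a subunit of the muscle acetylcholine receptor, had 81.4 and 35.8 without and 242 and 78.2 with estradiol (0.99, SE 0.49), with estradiol 1 alone high. Its 2 dimmer probe sets differed by -0.17 and -0.43 and by 0.01 and -0.24. Ift88, which serves transport in cilia, had 412 and 265 without and 698 and 411 with estradiol (0.65, SE 0.34), and Prcc had 156 and 60.2 without and 239 and 157 with estradiol (0.78, SE 0.39). Tollip, a regulator of Toll-like receptor signalling, had 69.7 and 89.6 without and 119 and 143 with estradiol (0.55, SE 0.28). The others of the 12 were Siah1-ps1, the LIM-domain binding factor Ldb2 and the polarity protein Crb3, at 0.59, 0.53 and 0.52, and Rhoa, a GTPase of the cytoskeleton. A dim second Crb3 probe set differed by 0.19 and -0.57. The 3 Rhoa probe sets disagreed: the dimmest differed by 0.95 and 0.61, and the others by 0.01 and 0.96 and by 0.18 and -0.49.

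On the lower side, Mbtps1, the protease that activates SREBP and ATF6 in the Golgi, had 581 and 521 after withdrawal and 390.4 and 359 with estradiol (-0.52, SE 0.22). Spcs1, a subunit of the signal peptidase, had 87.8 and 143 without and 52.8 and 66.5 with estradiol (-0.66, SE 0.30). Ankrd46 had 324 and 259 without and 219 and 176 with estradiol (-0.49, SE 0.26). In the named probe sets of these 3 genes both estradiol arrays lay below both withdrawal arrays, as in 10.3% of all genes. The choice again favours such an order. For Ankrd46, other probe sets differed by -0.15 and -0.59 and by 0.21 and -0.44. Agt, angiotensinogen, had 55.9 and 429 without and 28.7 and 81.4 with estradiol (-1.28, SE 0.78), and Zfp36, which destabilises inflammatory mRNAs, had 77.4 and 212 without and 18.5 and 121 with estradiol (-0.89, SE 0.62). In these 2 genes the replicate numbers differed more than the groups, and the groups overlapped. Tbx15, a T-box factor of limb mesenchyme, differed by -0.69 and -0.83 in the named probe set and by 0.09 and -0.33 in its brightest one. The rest were Rhd (-0.62), the kinase gene Pak3 (-0.86), the immunoglobulin gene Ighd (-0.55), Gpr137b (-0.70), Acy3 (-0.56) and the ubiquitin ligase gene Nedd4 (-0.51 in the named probe set). The brightest Nedd4 probe set differed by -0.17 and -0.68. Lama4, which encodes a laminin chain, was too dim for that rule, and both its estradiol signals, 9.1 and 11.6, lay below both withdrawal signals, 42.8 and 44.5.

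**Figure D4:**
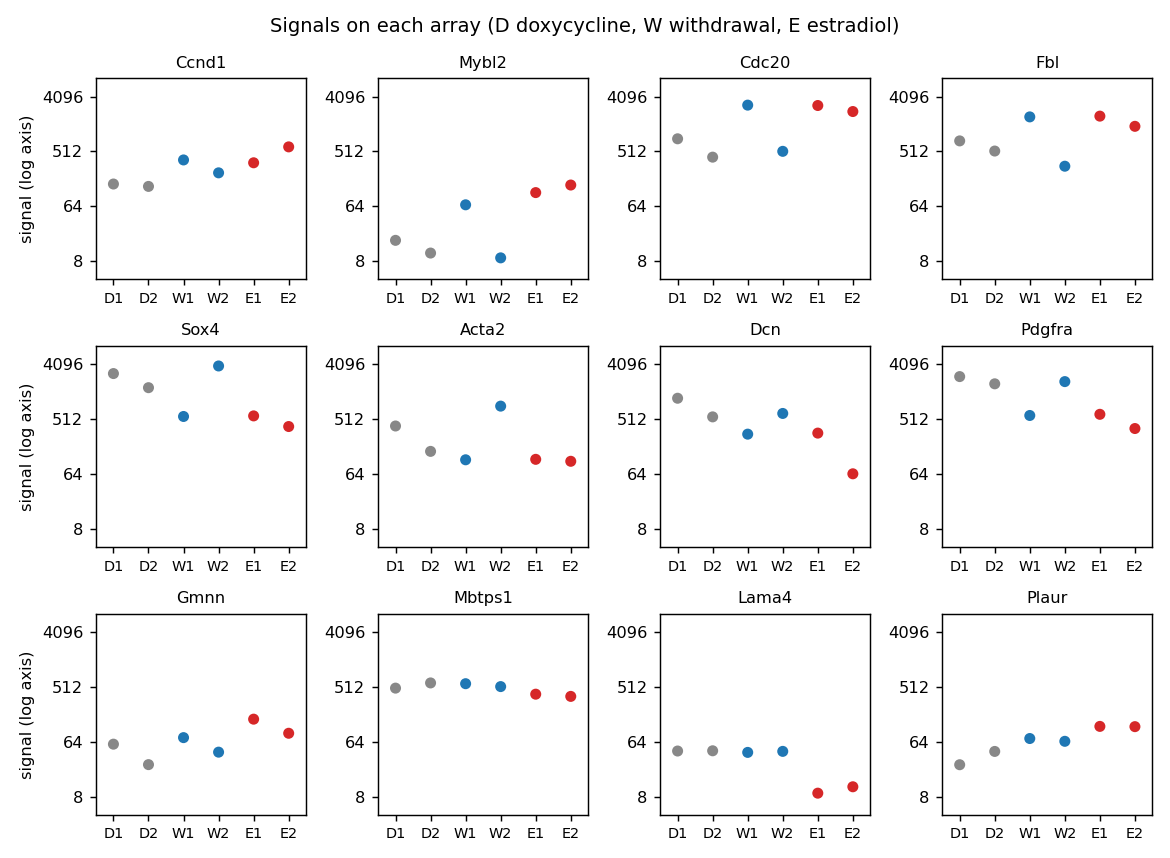
Signals of 12 named genes on each of the 6 arrays, on a log axis (brightest probe set, 1 point per array). In the panels of Mybl2, Cdc20, Fbl, Sox4, Acta2 and Pdgfra withdrawal 2 lies apart from withdrawal 1 and both estradiol arrays, and in the lower 4 panels both estradiol arrays lie on 1 side of both withdrawal arrays.

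The large differences within replicate 1 given here were smaller or of the other sign in replicate 2. The genes were chosen by their replicate 1 difference alone, which by itself favours a smaller value in replicate 2. Chrne (1.27 and 0.70), the dimmest Rhoa probe set (0.95 and 0.61) and Zfp36 (-1.12 and -0.67), named above, came from this choice too and kept their sign. Birc3, the inhibitor of apoptosis cIAP2, had 26.4 after withdrawal and 97.0 with estradiol in replicate 1 (1.14), against -0.14 in replicate 2. Ak3, a mitochondrial adenylate kinase, differed by 1.02 and -0.24, and Lep, the hormone leptin, by 0.99 and -0.35. Ercc1, a subunit of a DNA repair nuclease, differed by 0.86 and 0.18. On the lower side, Scx, a tendon transcription factor, differed by -1.15 and -0.23, and Gnb4, a G-protein subunit, by -0.92 and -0.24. Htr1d, a serotonin receptor, differed by -0.77 and 0.45, and Psmc4, a proteasome ATPase, by -0.70 and -0.10. Second probe sets of Ak3 and Lep differed by 0.10 and -0.43 and by -0.27 and -0.03. Tmem129 differed by -1.30 and -0.34 in the named probe set and by 0.06 and 0.09 in its brighter one.

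In replicate 2 the estradiol array was higher than the withdrawal array in genes of DNA replication, mitosis and ribosome production, while the medians of these lists were close to 0 in replicate 1. Of 47 DNA replication genes on the array 44 were higher and 3 lower in the fit, with 0 passed in either direction, where 51.8% of all genes were higher. The list median stood at 0.54, from 0.03 in replicate 1 and 0.99 in replicate 2, where 21 of 47 were at least 2-fold higher, against 3.26% of all genes. Lig1, the ligase that joins Okazaki fragments, had 221 and 121 after withdrawal and 271 and 303 with estradiol (0.70, SE 0.31). Pola2, a subunit of the primase complex, had 394 and 182 without and 439 and 559.6 with estradiol (0.80, SE 0.36). Pcna, the sliding clamp, differed by 0.14 and 1.54. In all 3 the estradiol arrays were above both withdrawal arrays, and withdrawal 2 was the lowest. The 3 were named by the smallest unadjusted p, which favours such an order. It was seen in 18 of the 47 genes, against 12% of all genes. A second, dim Pola2 probe set differed by -0.57 and 0.19. Gins2, a subunit of the replicative helicase, was among the 3 lower genes, at dim signals of 16.8 and 28.9 without and 8.7 and 13.7 with estradiol (-0.34, SE 0.15).

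Mitosis genes followed the same division. Of 44 on the array 42 were higher and 2 lower, 0 passed in either direction, and the median was 0.54 (0.02 in replicate 1 and 1.05 in replicate 2), with 26 at least 2-fold higher in replicate 2, against 3.26% of all genes, and 0 in replicate 1. Cdc20, the activator of the anaphase-promoting complex, had 2972 and 514 after withdrawal and 2930 and 2331 with estradiol (1.05, SE 0.75). Gtse1, which is made in G2 and S phase, had 434 and 107 without and 423 and 581 with estradiol (1.05, SE 0.54). In both, 3 arrays were alike and withdrawal 2 was low. Plk1, the mitotic kinase, differed by -0.20 and 2.28 in the named probe set, and by 1.33 and 1.25 in replicate 2 in the 2 others. Pmf1, a kinetochore protein, had 167 and 72.0 without and 208 and 389 with estradiol (1.14, SE 0.48), and Anln, the scaffold anillin of the cleavage furrow, had 427 and 270.2 without and 493 and 784 with estradiol (0.81, SE 0.36). Birc5 (survivin) and Mki67 (Ki-67) differed by 0.46 and 0.17 in replicate 1 and by 1.32 and 1.26 in replicate 2. A second, dim Mki67 probe set gave 0.02 and 0.55.

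Of the 15 E2F and S-phase genes 14 were higher and 1 lower, 0 passed in either direction, and the median was 0.49 (0.03 in replicate 1 and 0.90 in replicate 2). Cdt1, which licenses replication origins, had 637 and 192 after withdrawal and 641 and 772 with estradiol (0.93, SE 0.50). Tk1, thymidine kinase 1, had 1022 and 225 without and 1078 and 947 with estradiol (1.00, SE 0.61), and withdrawal 2 alone was low in both genes. Ccne1, cyclin E1, differed by 0.30 and 0.69, the most even of the named genes of this group. Hat1, which acetylates new histones, differed by 0.05 and 2.09.

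Ribosome biogenesis genes were higher in 54 of 55 and lower in 1, with 0 passed in either direction and a median of 0.48 (-0.01 within replicate 1 and 0.92 within replicate 2). Fbl, fibrillarin, which methylates ribosomal RNA, had 1902 and 292 after withdrawal and 1958 and 1329 with estradiol (1.06, SE 0.76). Nhp2, of the pseudouridylation complex, had 1081 and 538 without and 1306 and 2064 with estradiol (1.07, SE 0.40). Bop1, which processes the large-subunit RNA, differed by -0.10 and 1.87, and Srm, spermidine synthase, by 0.00 and 1.93. Wdr12, a partner of Bop1, was dim, at 17.2 and 2.9 without and 23.5 and 32.2 with estradiol (0.53, SE 0.20). A second, dim Bop1 probe set differed by 0.01 and -0.07. Ifrd2 and the transketolase gene Tkt, which are on no list of this group, differed by 0.03 and -0.04 in replicate 1 and by 2.21 and 2.16 in replicate 2. The transcript AI506816 and Mtm1, a phosphoinositide phosphatase, differed by 2.17 and 2.10 in replicate 2. The second AI506816 probe set differed by -0.03 and -0.56. A dimmer second Mtm1 probe set differed by 0.31 in replicate 1 and read 35.2 on both withdrawal 2 and estradiol 2.

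Genes of the matrix and the contractile cytoskeleton went the other way in replicate 2. Of 64 matrix genes 50 were lower and 14 higher, 0 passed in either direction, and the median was -0.20 (0.00 in replicate 1 and -0.42 in replicate 2), with 19 at least 2-fold lower, against 3.27% of all genes, and 1 higher in replicate 2. Dcn, the proteoglycan decorin, had 291 and 638 after withdrawal and 302 and 64.5 with estradiol (-1.37, SE 0.65), and estradiol 2 was below the other 3 arrays. Tnc, tenascin C, had 225 and 713 without and 224 and 105 with estradiol (-1.22, SE 0.53). Col5a2, a chain of type V collagen, had 1772 and 3247 without and 1302 and 1507 with estradiol (-0.76, SE 0.37), with differences of -0.44 and -1.09 in the 2 replicate numbers.

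Of 47 actin and contractile genes 31 were lower and 16 higher, 0 passed in either direction, and the median was -0.15 (0.02 in replicate 1 and -0.43 in replicate 2). Acta2, smooth muscle actin, had 109.8 and 843 after withdrawal and 112 and 104 with estradiol (-1.33, SE 0.81), with withdrawal 2 alone high. Vcl, vinculin of focal adhesions, had 522 and 1376 without and 537 and 448 with estradiol (-0.76, SE 0.43), and cardiac actin, Actc1, had 93.4 and 203 without and 83.2 and 79.4 with estradiol (-0.60, SE 0.34). A second Actc1 probe set was near 0 on all 4 arrays. Myl9, a myosin light chain, had 38.9 and 58.7 without and 21.4 and 21.9 with estradiol (-0.58, SE 0.27), with both estradiol arrays below both withdrawal arrays. Ext1, which builds heparan sulfate and stood on the same list, did likewise at 277 and 366 without and 230.5 and 209 with estradiol (-0.48, SE 0.24). This order was seen in 7 of the 47 genes, against 10.3% of all genes, and naming by the smallest unadjusted p favours it.

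Among the genes much lower on estradiol 2 than on withdrawal 2, Sox4, a transcription factor of development, had 569 and 3872 after withdrawal and 581 and 388 with estradiol (-1.59, SE 0.80). Its second probe set gave 0.13 in replicate 1 and -3.07 in replicate 2. Pdgfra, the receptor for platelet-derived growth factor on fibroblasts, had 591 and 2138 without and 617 and 359.9 with estradiol (-1.20, SE 0.58), while its dim second probe set gave -0.84 and 0.23. The lipid phosphatase gene Plpp3, the peptidase inhibitor Lxn, Amotl2 of the Hippo pathway and Phldb2 differed by -2.74, -2.69, -2.65 and -2.64 in replicate 2 and by 0.04, -0.08, 0.11 and -0.07 in replicate 1. The histone genes H1f2 and H3c14 differed by -2.67 and -2.57 in replicate 2, and by -0.01 and 0.31 in replicate 1.

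**Figure D5:**
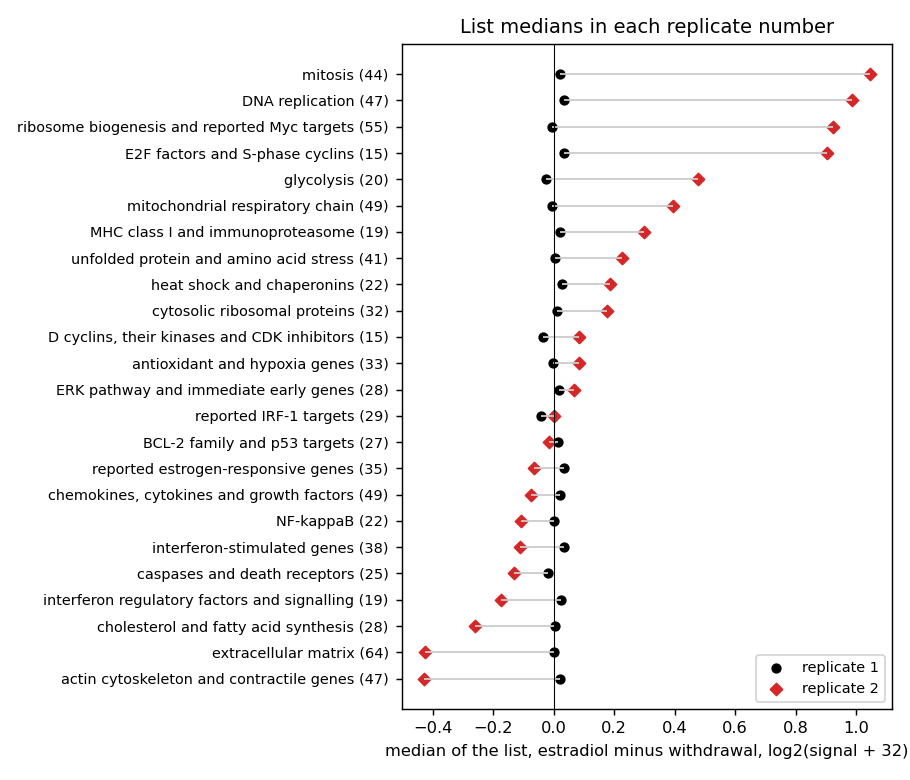
Median difference between estradiol and withdrawal for 24 gene lists in replicate 1 (black) and replicate 2 (red), in log2(signal + 32), with the number of genes on the array in brackets. Replicate 1 medians lie between -0.04 and 0.03, and those of replicate 2 between -0.43 and 1.05.

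The medians of these lists rested on the array labelled withdrawal 2. Without it they were 0.10 for DNA replication genes, 0.07 for mitosis genes, 0.06 for ribosome biogenesis, 0.00 for the E2F list, -0.03 for the matrix and -0.01 for actin genes, while without withdrawal 1 they were 0.93, 1.09, 0.89, 0.83, -0.46 and -0.19.

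The position of all 6 arrays was set against the differences of replicate 2. Of the 685 probe sets that differed at least 2-fold between withdrawal 2 and estradiol 2, withdrawal 1 and estradiol 1 both lay on the estradiol 2 side of the midpoint in 551 (80.4%). Both doxycycline arrays lay on the withdrawal 2 side in 440 (64.2%), which were 255 of the 335 higher with estradiol (76.1%) and 185 of the 350 lower (52.9%). The array labelled withdrawal 1 lay with the estradiol arrays for 80.9% of the higher and 80% of the lower probe sets. The control probe set for the 3′ end of the transferrin receptor, which supplies iron to dividing cells, was ordered alike: 453 and 77.2 in the withdrawal group, 417 and 397 in the estradiol group, and 81.1 and 79.2 with doxycycline. What lies behind this order was not tested.

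Of 49 chemokine, cytokine and growth factor genes 31 were lower and 18 higher, with 0 passed, a median of -0.07 and 12 at least 2-fold lower in replicate 2, against 3.27% of all genes. Csf1, the macrophage growth factor, had 681 and 1214 after withdrawal and 569.5 and 537 with estradiol (-0.69, SE 0.31), and Tgfb3, a growth factor of the TGF-beta family, had 353 and 496 without and 292 and 189 with estradiol (-0.75, SE 0.30). Both genes were lower in both replicate numbers, and their groups did not overlap. Such an order was seen in 6 of the 49 genes, against 10.3% of all genes, and naming by the smallest unadjusted p favours it. The neutrophil attractant Cxcl1 differed by -0.11 and -1.45. Ereg, epiregulin, was dim at 15.4 and 9.5 without and 23.1 and 21.4 with estradiol (0.29, SE 0.13).

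In metabolism, 38 of 49 respiratory chain genes were higher and 11 lower, with 0 passed and a median of 0.19 (-0.01 and 0.40). Cyc1, cytochrome c1, had 2899 and 1597 after withdrawal and 2963 and 3198 with estradiol (0.51, SE 0.34). A second Cyc1 probe set differed by -0.08 and -0.02. Of 20 glycolysis genes 13 were higher and 7 lower, with 0 passed and a median of 0.20 (-0.03 and 0.48), and of 28 cholesterol and fatty acid genes 8 were higher and 20 lower, with 0 passed and a median of -0.12. Scd1, the stearoyl-CoA desaturase, had 929 and 1504 without and 886 and 869 with estradiol (-0.42, SE 0.29). Its dim second probe set differed by 0.05 and -0.03. Prdx3, the mitochondrial peroxiredoxin, had 357 and 329.9 without and 584 and 473 with estradiol (0.57, SE 0.22), higher with estradiol in both replicate numbers. Adm, adrenomedullin, which hypoxia induces, differed by 0.22 and -2.12.

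Genes known to answer to estrogen itself were also split, with 17 of 35 higher and 18 lower, 0 passed and a median of -0.01 (0.03 within replicate 1 and -0.07 within replicate 2). Of the 35, 15 had signals under 32 on all 4 arrays, where the offset compresses any change. Sgk1, a hormone-induced kinase, had 349.7 and 873 after withdrawal and 304 and 258 with estradiol (-0.91, SE 0.40), and Gata3, a factor of estrogen-responsive breast epithelium, was dim at 11.4 and 17.1 without and 4.4 and 4.1 with estradiol (-0.35, SE 0.13). Among 25 caspase and death receptor genes 11 were higher and 14 lower (median -0.11), and among 27 BCL-2 and p53 target genes 16 were higher and 11 lower (median 0.03), with 0 passed in both lists. Tradd, an adaptor of the TNF receptor, had 396 and 253 without and 531 and 446 with estradiol (0.57, SE 0.29), and Gadd45b, a stress gene, differed by -0.08 and -1.67. The remaining lists had medians from -0.08 (NF-kappaB, 8 of 22 higher) to 0.12 (heat shock and chaperonins, 14 of 22 higher), with 0 passed in each.

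The cells carried fibroblast markers on all 4 arrays. The 19 markers on the array summed to 24760 and 30662 after withdrawal and 24956 and 19146 with estradiol, 13 of them lower and 6 higher, and Vim, vimentin, a filament protein named here after its values were seen, was dim at 7.0 and 6.5 without and 5.9 and 37.3 with estradiol. Summed signals of macrophage markers (16 genes) were 776 and 742 after withdrawal, against 771 and 706 with estradiol, while those of lymphocyte markers (13 genes) were 839 and 809 after withdrawal and 809 and 575 with estradiol. Adipocyte, muscle, endothelial, epithelial and neural lists summed to 191 to 752 on these arrays. The 3′ to 5′ ratio of the Gapdh control, a measure of RNA integrity, was 0.737 and 0.921 after withdrawal and 0.751 and 0.876 with estradiol, so it was higher in replicate 2 than in replicate 1 in both groups. Its part in the differences of replicate 2 was not tested.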

How the data were processed

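RNA of 6 samples was hybridised to 1-colour Affymetrix mouse arrays, 1 array per sample. The authors' deposited values are MAS5 intensities on a linear scale, per the submitters' processing notes, and the MAS5 version is not given in the sources used here. Trimmed means, leaving out 2% at each end, lay between 150.09 and 150.1, so the arrays were used as deposited. Signals were turned into log2(signal + 32) and 66 control probe sets were left out, with no filter on dim ones. Gene names came from the platform annotation (396 probe sets had several symbols and 1193 none). Estradiol was set against withdrawal with limma 3.58.1 in R 4.3.3, with 1 mean per group over all 6 arrays and an intensity trend. The fit had 3 residual degrees of freedom, two-sided p-values and Benjamini-Hochberg adjustment over 12422 probe sets. It was also run on simulated data with independent noise on every array. No batch shared by a replicate number was simulated, so that run does not test the calls made here. Precision is limited by having 2 arrays per group.

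The comparison, the 24 pathway and 8 marker lists and the rule for named genes were chosen with earlier results of these data known. The rule named Irf1, the D cyclins, Myc, Hras and Cdkn1a. Among probe sets with a mean signal of at least 64 in either group it added the 12 highest and 12 lowest by the smaller of the 2 within-replicate differences, the 6 and 6 largest of replicate 1 and the 10 and 10 largest of replicate 2. It also added up to 4 genes per list (8 for interferon genes and IRF-1 targets) with the smallest unadjusted p, of which those that illustrate a list are given. The replicate number goes with the extraction kit in the labels and so marks a shared batch that pairs the arrays. Deviations from the group means correlated at 0.43 between withdrawal and estradiol. Promoter sequences are those of RefSeq, GRCm38.p6. Alternatives covered the offset, a filter, quantile normalization, the replicate block, the 4 arrays alone, no trend and leaving out each array.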

Additional observations from a re-analysis of the deposited data

Results flagged for a closer look

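2 kinds of signal that the fitted differences do not cover were flagged. On the doxycycline 2 array 34 of 38 interferon-stimulated genes had their highest signal, with Isg15 at 4709 against 79.0 to 299 on the other 5 arrays. The share of all genes with their highest signal there was not counted. That array enters the fit's estimate of the spread but not the differences. Among the Affymetrix control probe sets, which were left out of the fit, the 3′ probe set of the transferrin receptor read 397 on estradiol 2, 417 on estradiol 1 and 453 on withdrawal 1. It read 79.2 to 81.1 on the doxycycline arrays and 77.2 on withdrawal 2.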

How the results depend on the processing

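Limma called 0 probe sets under each of the 13 alternatives to the main setting. The number at an unadjusted p under 0.05 was 160, and became 52 when the lowest 40% of probe sets were left out, where 7453 were tested, and 144 to 1378 when 1 array was left out. With the replicate number as a block it was 174. Probe sets at least 2-fold with the same sign in replicate 1 and replicate 2 numbered 0, and 3 with an offset of 16 in place of 32. The median of the IRF-1 targets was 0.02, became 0.066 with an offset of 16 and -0.10 without the lowest 40%, and ran from -0.16 to 0.073 when 1 array was left out. That of MHC class I ran from -0.10 to 0.15.

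Of 120 named differences, 26 changed sign when 1 array was left out and 0 under another setting, and the cause was not tested. Their ranges were -2.0 to 0.10 for Adm, -0.57 to 1.35 for Ak3, -2.55 to 0.0040 for Amotl2, -0.53 to 1.83 for the dimmer Ccnd1 probe set, -1.07 to 0.63 for Ccnd2, -0.38 to 0.19 for Ccnd3, -0.18 to 2.28 for Cdc20, -0.29 to 0.66 for the dimmer Cdkn1a probe set, -0.49 to 1.30 for the brighter Cdkn1a probe set, -0.86 to 0.071 for Cdkn2c, -0.23 to 2.34 for Fbl, -0.27 to 1.07 for Gbp2, -1.49 to 0.084 for Gpr137b, -3.04 to 0.36 for H1f2, -2.54 to 0.28 for H3c14, -0.59 to 0.27 for Htr1d, -1.31 to 0.13 for Ifi47, -0.29 to 0.39 for Ifit1, -0.36 to 0.097 for Irf1, -0.56 to 0.97 for Isg15, -0.44 to 1.07 for Lep, -1.28 to 0.10 for Myc, -0.10 to 1.38 for Psmb9, -0.015 to 2.02 for Tk1, -0.30 to 2.41 for Tkt and -0.032 to 0.84 for Vim. The spread of 2 arrays per group, with 3 residual degrees of freedom, limits every value.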
